A study of Mus musculus with 28 samples.

Results

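After deletion of *Brg1* in mesodermal cultures, 741 promoter regions carried H3K27ac in both 4-hydroxytamoxifen (4-OHT) replicates and overlapped no H3K27ac region in either control replicate. They were selected on the measured H3K27ac lists themselves. Regions of the 4-OHT replicates that overlapped by 1 bp or more were joined, those found in both replicates with an edge within 2.5 kb of an annotated transcription start site (TSS) were called promoter regions, and those without control overlap were called gained. The 741 gained regions were 5.63% of 13156 promoter regions, which in turn were part of 23941 merged H3K27ac regions. H3K27ac at these regions is therefore a description of the choice and was not tested. H3K27me3, Suz12, Brg1-FLAG and sequence were not used to choose them. The study reports that Brg1 signal correlates with H3K27ac, however, so FLAG is not independent of the choice.

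Acetylation of histone H3 at lysine 27 marks active promoters and enhancers, whereas trimethylation of the same residue is laid down by Polycomb repressive complex PRC2 and marks silent developmental genes. Suz12 is a core subunit of PRC2. Brg1 (Smarca4) is an ATPase of the BAF chromatin remodeling complexes, which move nucleosomes and can oppose Polycomb at its targets. For these mesodermal cultures, however, the study reports reduced H3K27me3 at derepressed developmental genes after loss of *Brg1*. It proposes that Brg1 and Polycomb complexes cooperate there. A lysine cannot be acetylated and methylated at the same time, so the question was which Polycomb state these promoters had in the parallel control cultures.

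The cells were mouse embryonic stem cells (ESCs) with floxed *Brg1* alleles and a Cre recombinase-estrogen receptor fusion under the *Actin* promoter (*Brg1*f/f; *Actin-CreER*), a constitutive driver that acts in every cell type of the culture. They were grown as embryoid bodies, given either 4-OHT (200 nM) or its solvent tetrahydrofuran (THF, the control) on day 2, reaggregated for 40 h with Vegf, activin A and Bmp4, and collected on day 4. Control cells carry the floxed alleles and the Cre fusion too, so loss of *Brg1* and exposure to 4-OHT cannot be told apart. Each condition had 2 biological replicates for H3K27ac, 3 for H3K27me3 and 2 for Suz12, while FLAG had 3 with normal Brg1, and each replicate gave 1 list of enriched regions. The labels give the FLAG samples the floxed line, whereas the methods of the study describe an ESC line with a FLAG-tagged *Brg1* allele and FLAG profiles in duplicate. Cultures hold several cell types, so a region newly called can come from more cells or from more signal per cell, and these cannot be told apart.

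Among markers of the labelled cell type, 17 of 19 mesoderm genes had H3K27ac within 2.5 kb of a TSS in both control replicates, against 10649 of 22367 protein-coding genes. The same held for 6 of 21 cardiac, 4 of 17 neural ectoderm, 4 of 19 endoderm, 4 of 11 trophoblast, 4 of 18 blood and endothelial, 11 of 20 pluripotency and 19 of 20 epithelial genes. In both 4-OHT replicates the counts were 14 mesoderm, 5 cardiac, 5 neural ectoderm, 3 endoderm, 3 trophoblast, 3 blood and endothelial, 12 pluripotency and 19 epithelial genes, against 10757 of all protein-coding genes. Their part in the gained regions was not tested.

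The lists hold positions only, so sequencing depth is unknown and the number and length of regions describe each library. H3K27ac lists held 37590 and 41062 regions in control and 36000 and 32161 in 4-OHT, with 28.0 and 30.8 Mb covered against 28.5 and 26.1 Mb. Replicate 1 of H3K27me3 stood apart in both conditions, with 16959 regions in control against 8798 and 8977, a median width of 250 bp against 425 and 350 bp, and 8.38 Mb covered against 11.0 and 10.0 Mb. In 4-OHT it held 10394 regions over 4.74 Mb, against 7872 regions over 8.99 Mb and 6787 over 7.62 Mb. The main comparisons of H3K27me3 are therefore given with and without both replicates numbered 1. Suz12 lists held 2951 and 2913 regions over 3.68 and 4.07 Mb in control, and 3654 and 4016 regions over 3.58 and 4.77 Mb in 4-OHT. FLAG replicates held 8021, 8257 and 192 regions, so that FLAG enrichment in at least 2 replicates rests almost wholly on replicates 1 and 2.

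Gained promoter regions were narrow. Their median merged width was 250 bp, from 150 bp at the 10th percentile to 650 bp at the 90th, against 1300 bp for the 11423 promoter regions that a region of both control replicates also overlapped, called kept here. The remaining 992 promoter regions met neither definition. By width, 371 of 962 promoter regions up to 250 bp were gained (38.6%), 243 of 2026 up to 500 bp (12.0%), 114 of 3024 up to 1000 bp (3.77%) and 13 of 7144 wider ones (0.182%). The reverse comparison gave a set of similar size: 811 of 13418 control promoter regions (6.04%) overlapped neither 4-OHT list, with a median width of 400 bp, and are called lost. Of 10785 merged 4-OHT regions away from TSSs, 1364 (12.6%) overlapped no control region.

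Most gained regions lay beside a TSS rather than over it. A TSS fell within 85 of the 741 (11.5%), 379 (51.1%) lay downstream of the nearest TSS and 277 (37.4%) upstream, at a median edge distance of 801 bp for those off the TSS. Kept regions covered a TSS in 73.2% of cases and lost regions in 13.2%. The centre of 190 gained regions was exonic (25.6%), of 397 intronic (53.6%) and of 154 intergenic (20.8%). By chromosome, the gained share of promoter regions was highest on chromosome 17, 51 of 649 (7.86%).

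Gained regions were often close to acetylation that was present in control. The nearest control H3K27ac region lay at a median of 850 bp, and 397 gained regions (53.6%) had one less than 1 kb away, 157 (21.2%) at 1 to 5 kb, 126 (17.0%) at 5 to 25 kb and 61 (8.23%) farther. For lost regions the median distance to the nearest 4-OHT region was 6650 bp, and 184 (22.7%) had one less than 1 kb away. H3K27ac lay within 2.5 kb of the nearest TSS in at least 1 control replicate at 477 gained regions (64.4%), and the nearest TSS itself was covered in both control replicates at 147 (19.8%). Among all 13156 promoter regions these shares were 97.8% and 54.1%. For the larger share of the set, acetylation was thus already called near the nearest TSS in control. That share was nevertheless smaller than among all promoter regions. The control lists also defined the set, so these values are descriptions, and a shift of control stretches was not tested.

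At the thresholds of the choice, members and non-members lay close to the limits on either side. Just inside the distance limit lay a region 2485 bp from the TSS of *Lasp1*, and just outside a region 2505 bp from that of *Ddah2*. Among gained regions, 13 touched a control region without sharing a base, among them those at *Npm1* and *Rgl2*, and 35 lay less than 100 bp from one. Just outside the set, 113 promoter regions shared no more than 25 bp with control regions, one of them at *Tpr*, and 325 shared no more than 100 bp. In the 4-OHT replicate that covered less, 178 gained regions were covered over no more than 50 bp. Leaving out a library relaxes the choice, so a higher count follows from the rule. The count was 3208 without 4-OHT replicate 2, 2194 without 4-OHT replicate 1 and 1491 without control replicate 1. It was 344 when a control region less than 1 kb away counted as overlap, and 455 with a promoter distance of 1 kb.

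The lengths covered by H3K27ac within the gained regions had a median of 200 bp in 4-OHT replicate 1 and 175 bp in replicate 2, or 202 and 153 kb in total. Replicate 1 covered more at 453 regions, replicate 2 at 243, and 45 were equal. Only 21 regions were covered over at least 500 bp in both replicates. The widest by this measure lay over a TSS of *Ptbp1*, which encodes a repressor of alternative exons (chr10:79323576-79325075 in mm9), with 1350 bp in replicate 1 and 1025 bp in replicate 2 and the nearest control region 2225 bp away. Next among coding genes came *Clk2*, a kinase of splicing factors (chr3:88977051-88978175, 1125 and 875 bp), and *Ubxn6*, a cofactor of the ATPase p97 (chr17:56207001-56207950, 950 and 850 bp). The *Ptbp1* and *Clk2* regions lay over a TSS and the *Ubxn6* region 907 bp downstream of one.

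The other widest members varied in position. *Rdh5*, a retinol dehydrogenase, had 1525 and 800 bp and *Jmjd6*, which encodes a hydroxylase with a Jumonji domain, had 750 and 800 bp over its TSS, with *1110005A03Rik* also within reach. A region of 900 and 675 bp lay over the TSS of the prostaglandin transporter gene *Slco2a1* (chr9:102910301-102911200), 13.4 kb from any control H3K27ac. *Snx5*, a sorting nexin, had 600 and 775 bp in an intron. *Arap1*, a GTPase-activating protein, had 1025 and 575 bp, and the lysosomal GTPase gene *Arl8a* 725 and 575 bp at an annotated ribosomal RNA gene in an intron. *Phyhip* (chr14:70856901-70857575) had 625 and 575 bp over its TSS, and *Amotl2*, a member of the angiomotin family, 550 and 1225 bp at 350 bp from a control region. The non-coding genes *AC122821.1* (1300 and 875 bp), *Gm17603* (700 and 825 bp), *CR974466.1* (850 and 650 bp) and *Mir34a* (650 and 600 bp) complete the 15 widest. Of these 15, only *Slco2a1* was overlapped by H3K27me3 in any control replicate, in replicate 2, and none by Suz12.

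*Mir34a* encodes a microRNA induced by p53. The gained region, chr4:149444251-149445125, lay 1688 bp downstream of the annotated 5′ end of the hairpin and 4.10 kb from the nearest control region. The annotated start of a microRNA is the end of its hairpin and not the promoter of its primary transcript. Among the 17 microRNA genes with a gained region, 2 had a mature 5p entry in the RefSeq table (GRCm38.p6, names and sequences only), *Mir34a* and *Mir324*. Their mature sequences are shown because they identify the product of each locus, with the seed (bases 2 to 8) in capitals, and the seeds differ.
mmu-miR-34a-5p: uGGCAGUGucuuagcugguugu
mmu-miR-324-5p: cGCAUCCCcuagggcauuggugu

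In all, 674 of 22367 protein-coding genes (3.01%) had a gained region within 2.5 kb of a TSS. A single gained region served 623 of them, 49 had 2, and *Lsm4* and *Snx5* had 3. No protein-coding TSS was near 71 gained regions, 1 coding gene was near 617 and more than 1 near 53. The rest of the 808 genes included 32 processed transcripts, 25 small nucleolar RNAs, 24 lincRNAs, 17 pseudogenes, 17 microRNAs and 14 small nuclear RNAs.

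A smaller group of genes had no H3K27ac region called near a TSS in either control replicate. These 116 protein-coding genes (0.519%) had a gained region and no control region of either replicate within 2.5 kb of any TSS, and are called newly marked. This count also rose when a library was left out, which relaxes the choice. It was 392 without control replicate 1, 388 without 4-OHT replicate 2 and 190 without 4-OHT replicate 1. It was 95 with 5 kb in place of 2.5 kb in the search for control H3K27ac. At 144 gained regions (19.4%) no gene of any type in reach, coding or non-coding, had control H3K27ac within 2.5 kb of a TSS, and these are called regions at newly marked genes. Their median width was 250 bp, as in the whole set, and the median distance to control H3K27ac was 16.4 kb. A TSS lay within 27 of the 144 (18.8%), and within 58 of the other 597 (9.72%).

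The examples of newly marked genes in this paragraph were chosen after their values were seen. Besides *Slco2a1* and *Phyhip*, the widest were *Rpp40*, a subunit of ribonuclease P, covered over at least 525 bp in both 4-OHT replicates, *Isoc1* (500 bp) and the signaling adaptor gene *Traf7* (425 bp). *Egfr*, the receptor of epidermal growth factor, had 2 gained regions, one over its TSS and one 468 bp downstream, both over 76 kb from control H3K27ac. *Icam1*, a cell adhesion molecule, had 300 and 175 bp at 479 bp upstream of the TSS. Further examples were *Tet2*, an enzyme that oxidizes methylcytosine (75 and 200 bp), *Setdb1*, a methyltransferase for H3 lysine 9 (75 and 75 bp), *Hdac8*, a deacetylase (75 and 375 bp), *Cdyl2*, a chromodomain protein (600 and 150 bp), and the Polycomb group genes *Sfmbt2* (150 and 150 bp) and *Pcgf5* (575 and 100 bp). In each case the TSS nearest to the region had no control H3K27ac within 2.5 kb.

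Gene lists held between 0 and 3 genes with a gained region each. These counts are descriptions, as the members were chosen on H3K27ac. Against 3.01% of all protein-coding genes, a gained region lay at 1 of 40 *Hox* genes (*Hoxc6*, 2.5%), 1 of 49 *Dlx*, *Pax*, *Irx*, *Nkx*, *Lhx* and related homeobox genes (*Irx2*, 2.04%), 3 of 44 *Sox*, *Pou*, *Cdx*, *Runx* and *Mef2* genes (*Pou3f1*, *Sox15* and *Mef2b*, 6.82%), and 3 of 60 *Tbx* and *Fox* genes (*Tbx2*, *Foxe1* and *Foxa3*, 5.00%), so that the shares lay on both sides of that of all genes. None of 19 mesoderm markers, 19 Wnt ligands, 14 Wnt antagonists, 11 trophoblast markers, 18 blood and endothelial markers, 18 interferon response genes or 11 genes of PRC2 subunits and cofactors had one. The lists of other lineages held 1 of 20 pluripotency genes (*Klf4*), 1 of 17 neural ectoderm genes (*Neurod1*), 1 of 19 endoderm genes (*Gata4*, also on the cardiac list), 2 of 21 cardiac genes (*Gata4* and *Mef2b*, 9.52%), 2 of 20 epithelial genes (*Grhl3* and *Pkp3*) and 1 of 15 germline genes (*Dazl*). The p53 targets *Trp53inp1* and *Plk2* (2 of 18) and the BAF subunit genes *Actl6a* and *Smarcd2* (2 of 22) completed the list members. Only *Foxe1*, *Tbx2*, *Pou3f1*, *Neurod1* and *Dazl* of these were newly marked.

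The listed genes with gained regions fell into those with and those without Polycomb marks in control. *Dazl*, an RNA-binding protein of germ cells, had a region of 200 and 125 bp at 84 bp upstream of a TSS (chr17:50432301-50432500), 23.4 kb from control H3K27ac, and no H3K27me3 or Suz12 within 5 kb of the TSS in any list of either condition. *Actl6a*, *Pkp3*, *Trp53inp1*, *Smarcd2* and *Plk2* likewise had none within 5 kb. *Sox15*, *Foxa3* and *Mef2b* also had none, and there the TSS nearest to the region belonged to a neighbor, *Mpdu1*, *Sympk* and *2310045N01Rik*. At *Grhl3*, a transcription factor of surface epithelium, the gained region itself was overlapped by H3K27me3 in control replicate 1 and in no other list. Within 5 kb of its TSS, H3K27me3 covered 800, 550 and 0 bp in control against 75, 75 and 0 bp in 4-OHT. The gained regions at *Hoxc6*, *Irx2*, *Pou3f1*, *Tbx2*, *Foxe1*, *Gata4*, *Neurod1* and *Klf4* were overlapped by H3K27me3 in at least 2 control replicates.

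Over the whole set, Polycomb marks in control were rare. H3K27me3 overlapped 16 of 741 gained regions in at least 2 of 3 control replicates (2.16%, exact binomial 95% confidence interval 1.24 to 3.48%) and Suz12 overlapped 18 in both control replicates (2.43%, 1.45 to 3.81%). Both criteria were met by 12 regions (1.62%), H3K27me3 alone by 4 and Suz12 alone by 6, so that 22 regions (2.97%, 1.87 to 4.46%) met at least 1 and 719 (97.0%) met neither. No H3K27me3 or Suz12 region of any control replicate overlapped 713 gained regions (96.2%). The intervals cover counting of regions only, and regions are not replicates of a condition.

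These shares were small in every class of promoter region. Among kept regions 0.963% had H3K27me3, 0.481% had Suz12 and 0.368% had both in control, and among all 13156 promoter regions the shares were 1.28%, 0.753% and 0.570%. Of 2580 kept regions with a width between the 10th and the 90th percentile of the gained ones, 6 had H3K27me3 (0.233%, 0.0854 to 0.505%) and 6 had Suz12. This class of similar width shares the range of 150 to 650 bp and was not matched within it. Of all 962 promoter regions up to 250 bp, 371 were gained, so the class lies toward greater widths. Contrasts with it still carry a difference in width. Lost regions had H3K27me3 in 10 of 811 cases (1.23%) and Suz12 in both control replicates in 0, for which the exact interval reaches 0.454% (3 regions would be 0.370%). These are descriptions over regions, without a test of the difference between classes in control.

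A wider window found more Polycomb marks near the gained regions. Within 5 kb of the nearest TSS, H3K27me3 was present in at least 2 control replicates at 83 gained regions (11.2%) and Suz12 in both at 32 (4.32%), and all 32 of these also had H3K27me3. The shares were 6.33% and 1.53% for kept regions, 8.41% and 2.02% for kept regions of similar width, and 9.99% and 2.10% for lost regions. Among the 144 gained regions at newly marked genes alone, 42 had H3K27me3 (29.2%, 21.9 to 37.3%) and 15 had Suz12 (10.4%) in this window. Regions at least 1 kb from control H3K27ac had H3K27me3 there in 56 of 344 cases (16.3%), and those closer in 27 of 397 (6.80%). The choice of newly marked genes uses the control H3K27ac lists, so these shares are not compared by a test.

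The 12 gained regions with both marks in control lay at *Foxe1*, *Hrk*, *Tcfl5*, *Aim1*, *Gata4*, *Hoxc6*, *Lonrf3*, *Arhgef7*, *Nfatc1*, *Pou3f1*, *Irx2* and *Tbx2*, here in the order of the H3K27ac length in the 4-OHT replicate that covered less. The median merged width was 325 bp. A TSS lay within 7 of them, 4 had a control H3K27ac region less than 1 kb away and 6 had none within 10 kb. All 12 were still overlapped by Suz12 in both 4-OHT replicates. H3K27me3 overlapped 6 of them in at least 2 of 3 4-OHT replicates and the other 6 in 1, and none lost it from every 4-OHT list. In control as in 4-OHT, replicate 1 contributed least: it overlapped only *Aim1*, *Gata4* and *Hoxc6* in control and only *Aim1* in 4-OHT.

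Several of the 12 encode developmental transcription factors, described first. *Foxe1*, a forkhead factor of the thyroid, had H3K27ac of 850 and 350 bp downstream of its TSS in its exon (chr4:46356801-46357725), 26.4 kb from control H3K27ac. Within 5 kb of this TSS, H3K27me3 covered 5225, 9426 and 9306 bp in control against 3900, 7806 and 7025 bp in 4-OHT, and Suz12 covered 3600 and 4325 bp against 3050 and 3625 bp. *Foxe1* thus had both marks in its window in every library while it carried H3K27ac in 4-OHT. The ranges of the conditions overlapped for both marks.

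*Tbx2*, a repressor of the T-box family in the developing heart, had H3K27ac of 275 bp in 4-OHT replicate 1 and only 25 bp in replicate 2 (chr11:85646326-85646600). H3K27me3 covered 3928, 9053 and 8928 bp of its window in control against 2403, 8428 and 8003 bp in 4-OHT, and Suz12 8003 and 8178 bp against 8078 and 8378 bp. *Irx2*, an Iroquois homeobox factor, had 375 and 25 bp of H3K27ac over its TSS (chr13:72766326-72766700) at 725 bp from a control region. Its H3K27me3 covered 3694, 8501 and 7876 bp in control against 2994, 7176 and 7326 bp in 4-OHT. At both genes the gain rested on a 25-bp stretch in replicate 2, the narrowest region that the lists hold.

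*Pou3f1*, a POU factor of neural progenitors, had 250 and 50 bp of H3K27ac in its exon (chr4:124334951-124335200). H3K27me3 covered 2575, 5725 and 4000 bp in control against 925, 3700 and 1300 bp in 4-OHT, while Suz12 covered 2750 and 2725 bp in control against 3075 and 3225 bp in 4-OHT. At *Pou3f1* the Suz12 lengths of the 4-OHT replicates lay above those of control and did not overlap them, whereas the H3K27me3 lengths overlapped but were lower in 4-OHT within each pair. *Gata4*, a zinc finger factor of heart and endoderm, had 250 and 125 bp of H3K27ac in an intron at 1211 bp from a TSS (chr14:63888501-63888750). H3K27me3 there covered 3990, 5340 and 4915 bp in control against 1425, 3915 and 5115 bp in 4-OHT, and Suz12 3715 and 3965 bp against 2915 and 3515 bp. *Gata4* therefore had less Suz12 in both 4-OHT replicates than in either control replicate, and H3K27me3 values that overlapped.

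*Hoxc6*, a homeobox gene of the *HoxC* cluster, had 100 and 550 bp of H3K27ac over a TSS (chr15:102830776-102831325), 6800 bp from control H3K27ac. H3K27me3 covered 6876, 9526 and 9376 bp in control against 4416, 7926 and 7051 bp in 4-OHT. Suz12 covered 6101 and 7626 bp in control against 3601 and 5001 bp in 4-OHT, with no overlap between conditions. *Hoxc6* was the sole *Hox* gene with a gained region.

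The other genes with both marks have varied roles. *Hrk*, a pro-apoptotic BH3-only gene, had 450 and 175 bp of H3K27ac over its TSS (chr5:118619701-118620150), H3K27me3 of 3375, 6250 and 5950 bp in control and 850, 4450 and 2400 bp in 4-OHT, and Suz12 of 2800 and 3075 bp against 2425 and 2725 bp. *Tcfl5*, a basic helix-loop-helix factor, had the least Suz12 of the 12, with 825 and 725 bp in control and 600 and 600 bp in 4-OHT. At *Aim1*, a gene of the crystallin fold family, the region (chr10:43723851-43724675) was the only member overlapped by H3K27me3 in all 6 lists. The H3K27me3 lengths within 5 kb of the nearest TSS, that of *Gm10812*, lay in the same range. They were 1025, 2500 and 2100 bp in control and 1125, 2300 and 2025 bp in 4-OHT.

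*Lonrf3*, a RING finger gene on the X chromosome, was the member with both marks whose H3K27me3 was lower in every 4-OHT replicate than in every control replicate, at 1825, 1150 and 600 bp in control and 375, 500 and 0 bp in 4-OHT. Its Suz12 covered 1100 and 925 bp in control against 1000 and 1250 bp in 4-OHT. At *Arhgef7*, a guanine nucleotide exchange factor, H3K27me3 covered 5075, 6100 and 5225 bp in control against 2700, 5350 and 1950 bp in 4-OHT. *Nfatc1*, a calcium-regulated factor of heart valves and osteoclasts, had H3K27ac of 75 and 175 bp that touched a control region. Its H3K27me3 covered 2075, 5525 and 5391 bp in control against 1450, 5425 and 5850 bp in 4-OHT, and those ranges overlapped. Taken by pairs of the same replicate number, H3K27me3 was lower in 4-OHT in all 3 pairs at 8 of the 12, *Foxe1*, *Hrk*, *Hoxc6*, *Lonrf3*, *Arhgef7*, *Pou3f1*, *Irx2* and *Tbx2*, although only *Lonrf3* had ranges that did not overlap. The same held for 51 of 119 gained regions (42.9%) and 496 of 1618 promoter regions (30.7%) with H3K27me3 in the window in any list. The 12 were chosen for H3K27me3 in control and the whole 4-OHT lists were shorter, so the count of 8 is a description.

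H3K27me3 without Suz12 in control, as defined here, was found at 4 gained regions, of which *Il11* and *4933428G20Rik* are named after their values were seen. *Neurod1*, a neuronal bHLH factor that shares its region with *Cerkl* (chr2:79294576-79295175), had H3K27ac of 550 and 350 bp, 87.0 kb from control H3K27ac. H3K27me3 within 5 kb of the nearest TSS, that of *Gm17325*, covered 2250, 2325 and 1900 bp in control against 1225, 1750 and 750 bp in 4-OHT, with no overlap, and Suz12 covered 0 bp in all 4 lists. *Klf4*, a pluripotency factor, had 375 and 125 bp of H3K27ac at 225 bp from a control region. Its H3K27me3 covered 1050, 2925 and 2325 bp in control against 250, 1375 and 1300 bp in 4-OHT, while Suz12 was longer in both 4-OHT replicates, at 1475 and 1725 bp against 1000 and 1350 bp. At *Klf4* and *4933428G20Rik* the gained region was overlapped by Suz12 in both 4-OHT replicates and in neither control replicate, and at *Il11*, which encodes a cytokine, in both 4-OHT replicates and in control replicate 2.

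Suz12 without H3K27me3 in at least 2 control replicates was found at 6 regions, at *A730035I17Rik*, *1700039E22Rik*, *Zfp503*, *Pcgf5*, *Arhgdig* and *C77370*, named after their values were seen. At each of the 6 the region was overlapped by H3K27me3 in control replicate 2 and in no 4-OHT replicate. At *Pcgf5*, a component of a variant Polycomb complex (chr19:36484201-36484775), H3K27me3 in the window covered 1425, 1550 and 1325 bp in control against 1150, 1025 and 1025 bp in 4-OHT. Suz12 covered 300 and 425 bp in control against 350 and 0 bp in 4-OHT. *Zfp503*, a zinc finger gene, had 3234, 8876 and 8351 bp of H3K27me3 in its window in control and 1850, 8076 and 7601 bp in 4-OHT.

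H3K27me3 was then compared between conditions over replicates, by two-sided exact permutation tests whose smallest possible p is 0.1 for 3 against 3. H3K27me3 overlapped 4, 24 and 16 gained regions in the control replicates and 1, 17 and 10 in the 4-OHT replicates. The control share averaged 1.98% ± 1.36 (SD, n = 3), and the 4-OHT share 1.26% ± 1.08 (SD, n = 3), lower by 0.720 percentage points (exact permutation p = 0.500). The groups overlapped, with replicate 1 lowest in both conditions, while within each pair of the same number the 4-OHT share was the lower (exact sign-flip p = 0.250 with the replicate block, the smallest possible with 3 pairs). Single libraries carried much of the difference, which was 0.0900 points without control replicate 2, 0.157 without 4-OHT replicate 1 and 1.44 without control replicate 1. Over all promoter regions the share was also lower in 4-OHT, at 0.296, 1.35 and 0.783% against 0.844, 1.75 and 1.22% in control. Divided by that share, the gained regions gave a mean ratio of 1.42 in control and 1.29 in 4-OHT (exact permutation p = 0.500), so that relative to promoter regions at large the conditions differed less. This ratio was also lower in 4-OHT within each pair, at 0.455 against 0.640, 1.71 against 1.85 and 1.72 against 1.76. Without both replicates numbered 1, a comparison added after seeing the data, the shares were 2.70% and 1.82% (exact permutation p = 0.667, smallest possible 0.33). With any region within 5 kb of the TSS counted, the shares were 13.5, 11.9 and 10.3% in control and 9.31, 9.72 and 7.15% in 4-OHT, and did not overlap (exact permutation p = 0.100). The values of replicates 2 and 3 alone did not overlap either.

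The length covered by H3K27me3 within 5 kb of the nearest TSS, summed over gained regions, was 131, 191 and 157 kb in the control replicates and 64.6, 141 and 101 kb in the 4-OHT replicates. The means were 160 ± 30.2 kb (SD, n = 3) and 102 ± 38.1 kb (SD, n = 3), a difference of 57.6 kb (exact permutation p = 0.200). Each 4-OHT value was below the control value of the same number, but the groups overlapped. The whole H3K27me3 lists were also shorter in 4-OHT, and as a percentage of all length in the list the gained regions held 1.62% ± 0.101 (SD, n = 3) in control and 1.42% ± 0.131 (SD, n = 3) in 4-OHT (exact permutation p = 0.300). This percentage was lower in 4-OHT within each pair of the same number, at 1.36 against 1.56, 1.57 against 1.74 and 1.32 against 1.56. Without both replicates numbered 1 the lengths differed by 53.2 kb (exact permutation p = 0.33).

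Gained and kept promoter regions were compared within each library. The share overlapped by H3K27me3 was higher in gained than in kept regions in replicates 2 and 3, by 1.95 and 1.25 percentage points in control and 1.33 and 0.754 in 4-OHT, and lower in replicate 1, at -0.187 and -0.136. The difference averaged 1.00 ± 1.09 (SD, n = 3) in control against 0.650 ± 0.739 (SD, n = 3) in 4-OHT, and the groups overlapped (exact permutation p = 0.800). Without control replicate 2 or without 4-OHT replicate 1 its direction was reversed, to 0.119 and 0.0381 points. Against kept regions of similar width, gained regions had the higher share in every library, by 0.501, 2.81 and 1.89 points in control and 0.0962, 1.95 and 1.16 in 4-OHT. The change was then 0.668 points in size in place of 0.355 (exact permutation p = 0.500, a test that ignores the pairing). Within each pair of the same number the lower value was that of 4-OHT. Without both replicates numbered 1, and against all kept regions, the mean difference was 1.60 in control and 1.04 in 4-OHT (exact permutation p = 0.667).

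Among the 119 gained regions with any H3K27me3 in the window in at least 1 list, 17 (14.3%) had less in every 4-OHT replicate than in every control replicate, and 0 had more. The same call held for 10.4% of 1618 promoter regions with H3K27me3 in the window, and the opposite call for 0.185%. By this call, which ignores the pairing, the share among gained regions was near the background. Windows of gained regions at the same TSS are shared, as at *Lonrf3*, which accounts for 2 of the 17. With the replicate block, in which each 4-OHT replicate is set against the control replicate of the same number, 51 gained regions (42.9%) were lower in all 3 pairs, beside 496 promoter regions (30.7%). Without the block, the count of 17 became 38 without control replicate 1, 31 without control replicate 3 and 31 without 4-OHT replicate 2. Without both replicates numbered 1, and again without the block, it was 43 of 94 (45.7%), beside 443 of 1148 promoter regions (38.6%).

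The regions with this call included *Neurod1* and *Lonrf3* and, named after their values were seen, the newly marked *Tet2* and *Slitrk5* and also *Igf2r*, which was not among the newly marked genes. At *Tet2* H3K27me3 covered 1925, 1750 and 1450 bp in control against 125, 775 and 125 bp in 4-OHT. At *Slitrk5*, a neuronal transmembrane protein whose gained region was the farthest of all from control H3K27ac (2673 kb), it covered 1525, 1150 and 700 bp in control against 500, 450 and 25 bp in 4-OHT. At *Igf2r*, an imprinted receptor of insulin-like growth factor 2 that lay 16.8 kb from control H3K27ac, it covered 650, 1750 and 1625 bp in control against 0, 50 and 0 bp in 4-OHT. *Igf2r* had almost no H3K27me3 left in its window, whereas *Tet2* and *Slitrk5* kept some in every library. Suz12 covered no more than 100 bp of the *Tet2*, *Slitrk5* and *Igf2r* windows in any list.

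Suz12 was compared in the same way, with 2 against 2 replicates and a smallest possible p of 0.33. It overlapped 19 and 21 gained regions in control and 23 and 28 in 4-OHT. The control share averaged 2.70% ± 0.191 (SD, n = 2), and the 4-OHT share 3.44% ± 0.477 (SD, n = 2) (exact permutation p = 0.33), with both 4-OHT values above both control values. The difference of 0.742 percentage points was 0.405 without 4-OHT replicate 2 and 1.08 without 4-OHT replicate 1. Over all promoter regions the share also was higher in 4-OHT, at 1.28 and 2.08% against 0.889 and 0.988%. Divided by that share, a comparison added after seeing the data, the gained regions gave ratios of 2.88 and 2.87 in control and 2.42 and 1.82 in 4-OHT (exact permutation p = 0.33), which is the opposite direction.

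Single regions went both ways. Among 57 gained regions with Suz12 within 5 kb of the TSS in any list, 9 (15.8%) had less in both 4-OHT replicates than in either control replicate and 8 (14.0%) had more. Among 598 promoter regions with Suz12 in the window, 4.85% had less and 29.6% had more. *Gata4*, *Hoxc6*, *Hrk* and *Tcfl5* were among those with less, and *Pou3f1*, *Klf4* and *Il11* among those with more. The difference between gained and all promoter regions in these counts was not tested.

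Few gained regions were overlapped by a called Brg1-FLAG region. None of the 741 was enriched in at least 2 of 3 FLAG replicates, for which the exact binomial 95% confidence interval reaches 0.497% (3 regions would be 0.405%), against 601 of 11423 kept regions (5.26%), 48 of 811 lost regions (5.92%) and 33 of 2580 kept regions of similar width (1.28%, 0.882 to 1.79%). A single FLAG replicate overlapped 9 gained regions (1.21%), 5 in replicate 1 and 4 in replicate 2, against 17.8% of kept regions and 7.48% of kept regions of similar width in any replicate. Named after their values were seen, those in replicate 1 lay at *Bmf*, a pro-apoptotic gene, *Far1*, *Fam20c*, *Tlr5* and a U6 gene, and those in replicate 2 at *Smad6*, an inhibitor of Bmp signaling, *Nckipsd*, *Arfip1* and *Shroom3*. Within 5 kb of the nearest TSS, FLAG was enriched in at least 2 replicates at 38 gained (5.13%), 1060 kept (9.28%) and 135 lost regions (16.6%), and at 184 of 2580 kept regions of similar width (7.13%). FLAG was measured in cells with normal Brg1 only, so there is no comparison between conditions. Kept and lost regions were chosen to have H3K27ac in control and gained regions to lack it. The study reports that Brg1 and H3K27ac signals correlate over the genome. These contrasts are therefore tied to the choice and are descriptions. The study also calls its FLAG regions a conservative estimate of Brg1 occupancy, so a region without FLAG is not shown to be unbound.

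The sequence at the centre of the gained regions, 300 bp of mm9 for each, was poorer in CpG than that of kept regions. Median GC content was 49.7% in gained, 60.0% in kept, 57.3% in kept regions of similar width and 50.7% in lost regions. The median number of CpG dinucleotides was 4, 18, 13 and 4, and the median ratio of observed to expected CpG was 0.27, 0.69, 0.59 and 0.23. Gained regions at newly marked genes were richer, with a median GC content of 58.7% and 11.5 CpGs, than those at genes already acetylated in control (48.7% and 4). The 22 gained regions with H3K27me3 or Suz12 in control were the richest, with 73.2% GC, 39 CpGs and an observed to expected ratio of 0.96.

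Exact matches to short motifs were counted on either strand. GGGCGG, a GC box, was in 17.4% of gained windows, 45.7% of kept, 12.8% of lost and 42.6% of all promoter windows, and in 81.8% of the 22 with Polycomb marks. TATAAA was in 11.3% of gained and 6.89% of all promoter windows, and in 0 of the 22. Lost windows held TATAAA in 11.1% of cases. In kept regions of similar width the shares were 8.06% for TATAAA and 35.2% for GGGCGG. For gained and all promoter windows, in that order, CCAAT was in 26.7% and 25.4%, the E-box CACGTG in 4.45% and 6.50%, the GATA motif AGATAAG in 2.70% and 2.08%, the forkhead motif TGTTTAC in 3.24% and 2.76%, and the T-box motif AGGTGTGA in 0.945% and 0.798%. None of these motifs contains another. A match is a description of the letters and not a binding site.

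CpG content varied between single regions of each kind, as 6 sequences show. The middle 120 bp are shown, on the forward strand of mm9 with CG in capitals, for the 3 widest regions with both Polycomb marks in control and for the 3 widest at newly marked coding genes with neither mark in any control replicate, among regions whose sequence could be shown (see the processing section). The first set is *Foxe1* (chr4:46357203-46357322, exon), *Hrk* (chr5:118619866-118619985, exon) and *Gata4* (chr14:63888566-63888685, intron).
Foxe1: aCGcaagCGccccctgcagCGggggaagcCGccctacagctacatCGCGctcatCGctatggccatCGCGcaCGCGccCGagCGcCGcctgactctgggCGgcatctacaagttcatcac
Hrk: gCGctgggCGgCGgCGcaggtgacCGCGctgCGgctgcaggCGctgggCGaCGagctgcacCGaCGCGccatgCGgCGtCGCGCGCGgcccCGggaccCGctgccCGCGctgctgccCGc
Gata4: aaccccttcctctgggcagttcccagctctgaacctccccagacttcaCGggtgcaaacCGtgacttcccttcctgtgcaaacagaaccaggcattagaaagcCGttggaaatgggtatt
*Foxe1* and *Hrk* hold 15 and 24 CpGs in these stretches, with 67.5 and 83.3% GC, while *Gata4* holds 3 with 53.3% GC. The second set is *Rpp40* (chr13:35997791-35997910), *Traf7* (chr17:24651778-24651897) and *Osbpl6*, which encodes an oxysterol-binding protein (chr2:76244866-76244985), all with an intronic centre.
Rpp40: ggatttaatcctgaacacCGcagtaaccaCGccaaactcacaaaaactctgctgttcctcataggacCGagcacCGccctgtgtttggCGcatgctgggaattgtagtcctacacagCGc
Traf7: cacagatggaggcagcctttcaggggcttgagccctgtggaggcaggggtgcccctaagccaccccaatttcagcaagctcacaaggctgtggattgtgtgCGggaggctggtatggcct
Osbpl6: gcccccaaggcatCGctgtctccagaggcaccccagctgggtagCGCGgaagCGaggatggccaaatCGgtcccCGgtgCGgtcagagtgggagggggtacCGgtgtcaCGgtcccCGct
These hold 6, 1 and 10 CpGs with 52.5, 60.8 and 69.2% GC. Both sets are defined by overlap with the region itself in control. Within 5 kb of its TSS, *Osbpl6* had H3K27me3 over 50, 375 and 0 bp in control and 175, 250 and 350 bp in 4-OHT. Its region was overlapped by Suz12 in 4-OHT replicate 2. *Rpp40* and *Traf7* had 0 bp of either mark in this window in every list. The sets overlapped: *Gata4* had fewer CpGs than *Rpp40* and *Osbpl6*, and *Osbpl6* had more GC than *Foxe1*.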

How the data were processed

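ChIP-seq against H3K27ac, H3K27me3, Suz12 and FLAG was analysed from 17 deposited lists of enriched regions, with 11 further input samples not used here otherwise. The authors aligned reads to mm9 with Bowtie and called regions per replicate over input with a Poissonian model, at 1e-06 and a 2-fold cutoff for FLAG and 1e-12 for the others. The lists give chromosome, start and end only. TSSs were those of GENCODE for mm9 (86846 positions). Overlap means at least 1 bp. Named regions are the 15 widest, those at listed genes, the 10 widest with both Polycomb marks, the 10 widest in at least 2 FLAG replicates (none) and those at thresholds. Conditions were compared over replicates by exact permutation. Deviations of same-numbered H3K27me3 samples from their group means correlated at 0.932, 0.875 and 0.796 over 19499 merged regions, so numbers pair the samples. The members and lists were chosen with earlier results of these data known. Sequences were shown only for regions off chromosome 18 whose centre overlapped no annotated untranslated region. Overlap code was tested on simulated data. Python 3.11.15, NumPy 2.4.6 and SciPy 1.17.1 were used.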

Additional observations from a re-analysis of the deposited data

How the results depend on the processing

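No comparison of H3K27me3 or Suz12 could pass 0.05 with these replicate numbers, so a p that stays above it says nothing about stability. The H3K27me3 share and covered length were lower in 4-OHT under every alternative run. Their sizes moved with single replicates left out, from -1.44 to -0.0900 percentage points for the share and from -77.0 to -38.9 kb for the length. With the replicate block (exact sign-flip test), p was 0.250 for the H3K27me3 share and 0.250 for the covered length. It was 0.500 for the gained minus kept difference and 0.500 for the Suz12 share. The smallest possible p of this test is 0.25 with 3 pairs and 0.5 with 2 pairs, so it could not pass 0.05 either. The gained minus kept difference reversed without some replicates, with changes between -0.951 and 0.119 percentage points, and the Suz12 share relative to all promoter regions reversed, to -0.757. The count of gained regions was 455 with a promoter distance of 1 kb and 344 with control regions less than 1 kb away counted as overlap. It ranged from 947 to 3208 without single replicates. It was 1051 at 5 kb, 670 with coding TSSs only, 560 for regions at least 200 bp wide and 1010 with equal list sizes. The FLAG share was 1.21% with any replicate. Regions lower in H3K27me3 in all 4-OHT replicates numbered 51 with the replicate block, 43 with both replicates 1 left out, and 19 to 38 without single replicates. Newly marked genes numbered 165 to 392 without single replicates. These counts of regions and genes require every library to meet the rule. Leaving a library out relaxes it, so a rise follows from the rule itself. Why the sizes of the shifts differed between libraries was not tested. For H3K27ac and Suz12, same-numbered deviations correlated at 0.418 and 0.444 with 2 pairs. Region lists carry no depth, so a region not called is not shown to be absent.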
